A study of Rattus norvegicus with 47 samples.

Results

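Kidneys of rats that carried lead (Pb) pellets were compared with kidneys of rats that carried cobalt (Co) pellets, 12 months after implantation. The comparison takes the 7 Pb and 8 Co libraries, 15 of the 47 kidney RNA-seq libraries of the study, chosen by the metal in their labels, and covers every gene that passed the filter on low counts. The other libraries come from rats with tungsten, aluminium, depleted uranium or tantalum (Ta) pellets, 8 each. Ta served as the inert metal, and the 8 Ta kidneys are given here as the level against which both metals can be read. Rats were assigned to metals at random, and every pellet was a cylinder 1 mm across and 2 mm long. Strain, sex, age, genotype, the site of the pellet and the number of pellets per rat are not given in the sources used here. A group without a pellet is not analysed here, and all values come from animals that had surgery and carried metal. Each library carries its own animal number, and since the numbers of a metal follow each other, the order of handling and the metal cannot be told apart. The study asked for early markers of kidney damage from embedded metal.

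Lead accumulates in the proximal tubule, inhibits enzymes of heme synthesis, in particular delta-aminolevulinate dehydratase, and can replace calcium and zinc in proteins. Cobalt ions inhibit the prolyl hydroxylases that mark hypoxia-inducible factor for destruction, and cobalt salts are a classical inducer of erythropoietin in the kidney. Both metals are filtered by the glomerulus and taken up by tubule cells, where metallothioneins and glutathione can bind metal ions.

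The libraries held 21604755 to 29440870 counts in Pb kidneys and 22804509 to 27319666 in Co kidneys (means 25818816 for Pb and 24796308 for Co, exact permutation test, two-sided p = 0.398, n = 7 and 8). Mitochondrially encoded genes took 22.6% ± 1.30 of the counts in Pb kidneys and 22.2% ± 2.40 in Co kidneys (SD, exact permutation p = 0.745). More genes had at least 1 count in Pb kidneys, 16219 to 17050, than in Co kidneys, 14538 to 16257 (exact permutation p = 0.00124). Markers of the kidney were present in both groups: Umod, the uromodulin of the thick ascending limb, had a lowest, median and highest level of 2811, 3130.3 and 6001 CPM in Pb kidneys and 2589, 3095 and 5676 CPM in Co kidneys, and the proximal phosphate transporter Slc34a1 had 1896, 2239 and 2734 CPM in Pb kidneys and 2098, 2791 and 4117 CPM in Co kidneys. CPM are counts divided by the library's TMM-scaled total, in the usual unit.

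The Co kidneys did not form 1 tight group. On the first principal component, which held 20.1% of the variance, Co replicates 1 to 3 lay between -74.3 and -39.8, and replicates 5 to 7 between 49.6 and 67.2, whereas all Pb kidneys lay between -2.10 and 13.7. Averaged over 14 endothelial markers, log2 CPM reached 2.86 to 3.82 in Pb kidneys. It reached 4.72 to 5.30 in the first 3 Co replicates and 3.05 to 3.42 in Co replicates 5 to 7. Among the Pb kidneys, replicate 4 stood apart: the mean log2 CPM of cytosolic ribosomal genes minus that of genes for very large proteins, called the balance below, was 4.33 there and 2.95 to 3.72 in the other Pb kidneys. This balance was 2.08 to 2.92 in Co kidneys and 1.22 to 2.08 in Ta kidneys, so that it separated the Pb from the Co kidneys without overlap. Where a count or call below moved by over 1.5 times or was lost without Co replicates 1 to 3 or without Pb replicate 4, the value without them is mostly given beside it. The plot of list levels by library shows these positions.

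**Figure D1:**
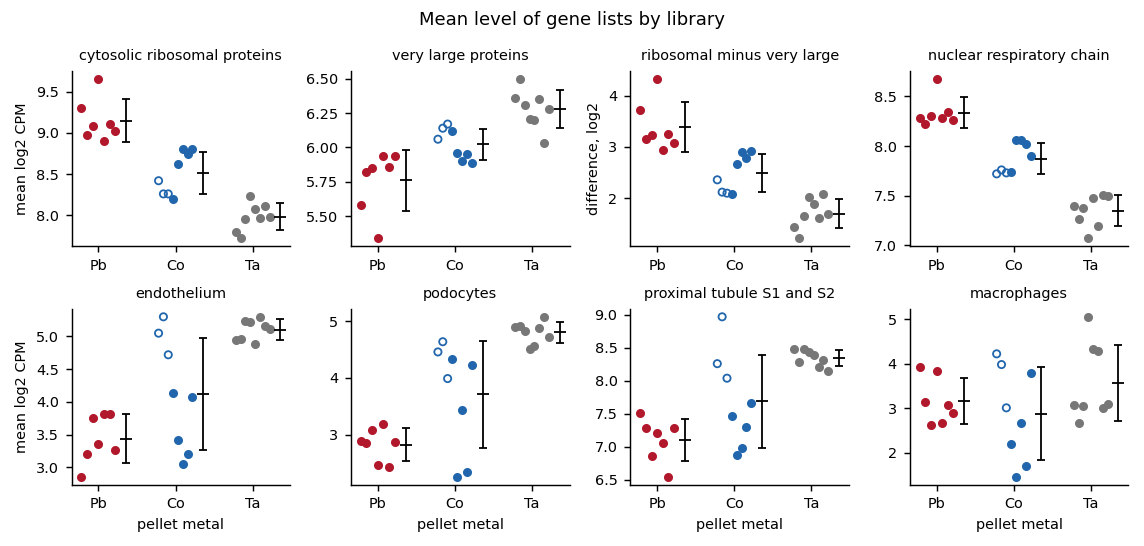
Mean log2 CPM of the tested members of 7 gene lists, and the difference between the ribosomal and the very large protein list, in 7 Pb, 8 Co and 8 Ta kidneys; each point is 1 library, open circles are Co replicates 1 to 3, and bars give the mean ± SD. Pb and Co kidneys do not overlap in the panels of ribosomal genes, of nuclear respiratory chain genes and of the difference, while Co replicates 1 to 3 lie near the Ta kidneys for endothelium.

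Pb and Co kidneys differed by small shifts in many genes. Of 15868 genes tested, 4100 (25.8%) differed between Pb and Co kidneys at an adjusted p under 0.05, with 1799 (11.3%) higher and 2301 (14.5%) lower in Pb kidneys. The median log2 fold change, always Pb over Co here, was 0.47 among the higher and -0.59 among the lower genes, and -0.00 over all genes tested. Only 192 of the higher and 390 of the lower genes changed by a log2 of at least 1. Every Pb kidney lay above every Co kidney for 504 genes (3.18%) and below for 259 genes (1.63%), together 4.81%. Tests used edgeR's quasi-likelihood F test with Benjamini-Hochberg adjustment over all genes, and fold changes are given with their standard error. With Co replicates 4 to 8 as the only Co kidneys, 2048 genes passed, of which 1846 were among the 4100, all in the same direction. With the balance as a covariate, 106 genes passed (67 higher, 39 lower, and 2176 at an unadjusted p under 0.05).

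**Figure D2:**
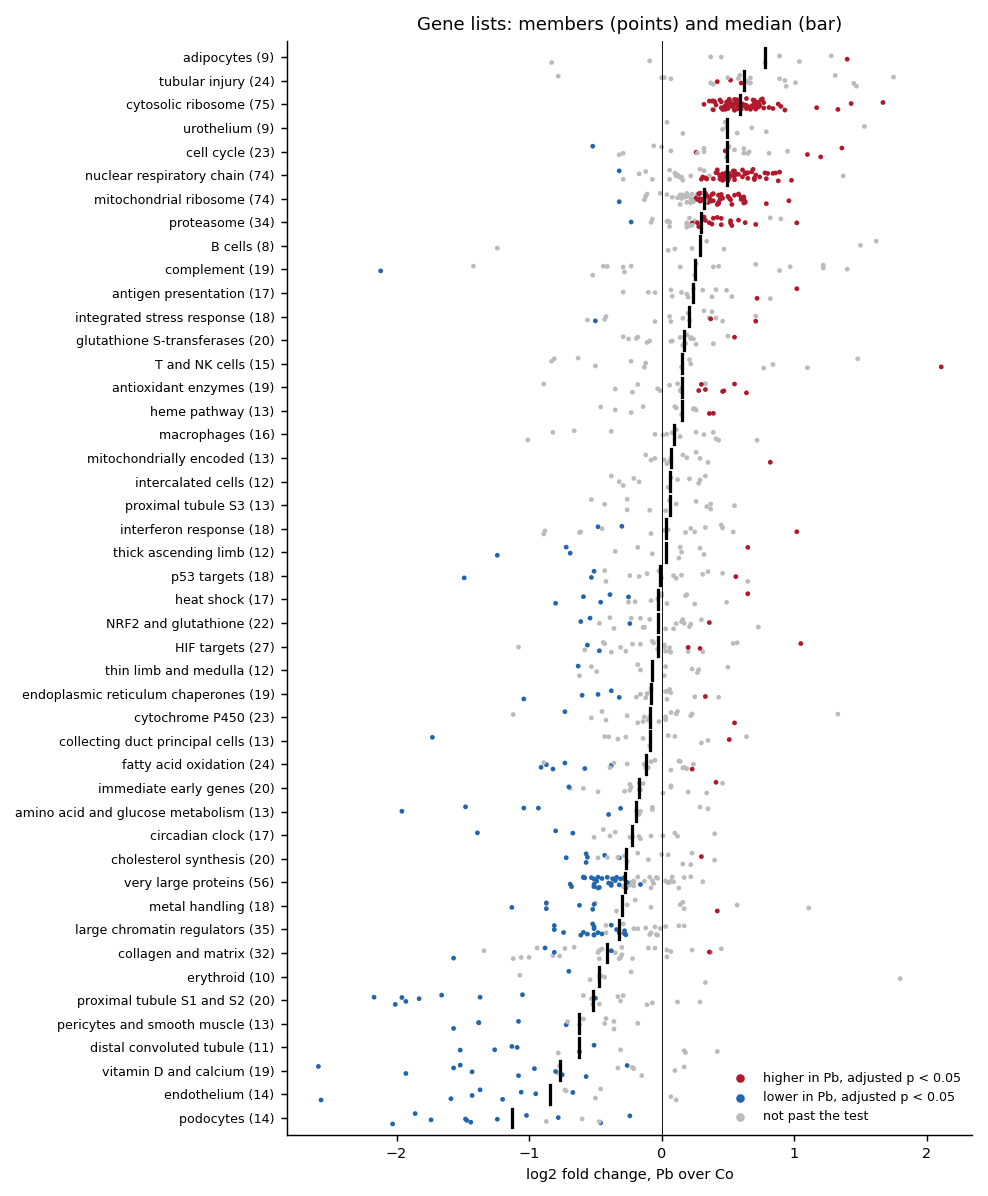
Log2 fold change, Pb over Co, of each tested member of the gene lists (points, number tested in brackets) with the median of each list (black bar). Red and blue points passed the test (higher and lower in Pb), grey points did not. Most ribosomal and respiratory chain genes lie to the right, and most podocyte, endothelial and vitamin D genes lie to the left. A list of renin and angiotensin genes is not shown.

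Genes of the cytosolic ribosome, the machine that translates messenger RNA, were higher in Pb kidneys as a group. Of 75 tested members 74 rose and none fell, against 11.3% of all genes, with a median log2 fold change of 0.59. In 40 of them the groups did not overlap, against 3.18% of all genes. Rps28, a small-subunit protein, had 168, 235 and 419.8 CPM in Pb kidneys as lowest, median and highest level, against 58.2, 99.6 and 149.7 CPM in Co kidneys and 35.5, 46.6 and 52.97 CPM in Ta kidneys. Every Pb kidney held more than every Co kidney (log2 fold change 1.43 ± 0.18, adjusted p = 7.65e-07). Rpl38 of the large subunit had 214, 293 and 525 CPM in Pb kidneys, against 69.5, 119 and 194 CPM in Co kidneys (1.33 ± 0.19, adjusted p = 5.6e-06). Rps21 (1.17), Rpl41 (0.93), Rps18 (0.90) and Rps14 (0.75) rose likewise without overlap, the values being log2 fold changes. Against Ta, the list had 75 higher members in Pb kidneys (median 1.09) and 72 in Co kidneys (median 0.51), and these contrasts share the Ta libraries. Among all genes, 24.5% were higher in Pb and 13.6% in Co kidneys against Ta. With Co replicates 4 to 8 as the only Co kidneys 51 members passed (median 0.49), and with the balance as covariate, a measure that contains these genes, 6 passed. The balance itself moves with the metal, and its part in these values was not tested. Ribosomal genes have many near-identical copies, and how reads with several matching places were counted is not given in the sources used here, so single values such as that of Rpl37 (2.99, 4.95 and 7.35 CPM in Pb kidneys, 0.882, 1.23 and 2.95 CPM in Co kidneys) are uncertain.

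Promoters of the 5 ribosomal genes with the smallest p are shown because these genes moved together. They are RefSeq sequences of the GRCr8 build, which is not the build of the counts, and run 5′ to 3′ from 85 bases before the annotated start to 15 bases from it on. Capitals mark CCGGAAG or its reverse complement, CTTCCGG, a core that ETS family factors bind.
Rps28 (chr7:15311319-15311418, minus strand): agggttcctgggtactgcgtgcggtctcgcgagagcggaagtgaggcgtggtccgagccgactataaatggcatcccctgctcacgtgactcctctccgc
Rps14 (chr18:56498175-56498274, plus strand): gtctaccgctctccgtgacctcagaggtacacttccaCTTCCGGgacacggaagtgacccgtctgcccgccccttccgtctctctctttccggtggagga
Rps21 (chr3:187723953-187724052, plus strand): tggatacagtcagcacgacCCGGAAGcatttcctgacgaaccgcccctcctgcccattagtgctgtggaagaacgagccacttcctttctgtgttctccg
Rps18 (chr20:4933660-4933759, plus strand): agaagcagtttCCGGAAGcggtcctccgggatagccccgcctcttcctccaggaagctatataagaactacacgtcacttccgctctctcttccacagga
Rpl41 (chr7:1563483-1563582, minus strand): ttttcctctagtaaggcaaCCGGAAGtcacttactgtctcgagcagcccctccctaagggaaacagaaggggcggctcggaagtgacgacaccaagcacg
The core is in 4 of these 5 windows. In the 300 bases of the promoter table, 250 before the start and 50 after, it was found on either strand in 20 of 59 ribosomal genes with a promoter entry (33.9%), against 15.9% of all tested genes with an entry (1912 of 12023). The share was 30.8% for nuclear respiratory chain genes, 33.9% for mitochondrial ribosomal genes and 33.3% for proteasome genes, which were also higher in Pb kidneys, and other lists with higher members were not searched. Among lists lower in Pb kidneys it was 6.52% for genes of very large proteins, 12% for large chromatin regulators (3 of 25) and 0% for podocyte markers (0 of 10). CTTTC, the letters of the pyrimidine tract that begins ribosomal messages, was searched on the given strand within 10 bases either side of the start. It was found in 32.2% of the ribosomal genes, 1.54% of the respiratory chain genes, 3.39% of the mitochondrial ribosomal genes, 13.3% of the proteasome genes, 8.7% of the genes of very large proteins and 2.54% of all tested genes. A match of CTTTC and one of the core can share at most 1 base, and a match describes the sequence only.

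Subunits of the mitochondrial respiratory chain and ATP synthase that are encoded in the nucleus were higher in Pb kidneys too. Of 74 tested, 56 rose and 1 fell, with a median log2 fold change of 0.49, and 39 rose without overlap. Of all genes, 11.3% rose and 3.18% were higher without overlap. Cox7c, a small subunit of cytochrome c oxidase, had 395, 493.3 and 731 CPM in Pb kidneys, against 219, 255 and 334 CPM in Co kidneys and 120.8, 145 and 176 CPM in Ta kidneys. The lowest Pb kidney lay above the highest Co kidney (0.89 ± 0.12, adjusted p = 2.64e-06). Ndufa1, an accessory subunit of complex I, had 135.2, 156 and 220.4 CPM in Pb kidneys and 78.5, 90.0 and 109 CPM in Co kidneys (0.86 ± 0.11, adjusted p = 2.64e-06). Cox5b (0.80) and the ATP synthase subunit Atp5me (0.98) rose without overlap as well. The member that fell, the complex III core protein Uqcrc2, is a large subunit, with 255, 295 and 321 CPM in Pb kidneys and 296, 372 and 398.5 CPM in Co kidneys (adjusted p = 0.035), and lost its call when Pb replicate 3 or 7 or Co replicate 2, 3 or 4 was left out (highest adjusted p = 0.0707 without Pb replicate 3). With Co replicates 4 to 8 only, 35 members rose and none fell.

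Of the mitochondrially encoded subunits of the same complexes, 13 were tested and 1 rose, the complex I subunit ND3, with a list median of 0.07. ND3 had 2559.7, 3764 and 6437 CPM in Pb kidneys and 1501, 2371 and 2758 CPM in Co kidneys (0.82 ± 0.20, adjusted p = 0.00213), and was 0.65 with an adjusted p of 0.0522 against Co replicates 4 to 8. Whether nuclear and mitochondrial subunits differ in their response was not tested. Mitochondrial ribosomal proteins rose in 44 of 74 genes and fell in 1 (median 0.32), against 11.3% of all genes that rose. Mrpl54 had 177, 207 and 232 CPM in Pb kidneys, against 84.8, 107 and 122.3 CPM in Co kidneys, without overlap (0.96 ± 0.14, adjusted p = 3.56e-06), and Mrpl52 rose by 0.62. Against Co replicates 4 to 8 16 of the mitochondrial ribosomal genes passed. Genes of the proteasome, which degrades tagged proteins, rose in 18 of 34 and fell in 1 (median 0.30), and 10 rose and none fell against Co replicates 4 to 8. The 1 that fell lost its call without Pb replicate 5, 6 or 7 or Co replicate 2, 4, 5 or 7, each left out alone. The catalytic subunits Psmb6 (146, 156 and 210.3 CPM in Pb kidneys, 82.2, 103.8 and 112 CPM in Co kidneys; 0.71 ± 0.10, adjusted p = 4.1e-06) and Psmb5 (0.63 ± 0.09, adjusted p = 2.97e-06) rose without overlap. Without Pb replicate 4 the count of risen mitochondrial ribosomal genes was 31 and of proteasome genes 14.

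Of the 10 higher genes with the smallest p, none overlapped between the groups, against 3.18% of all genes that were higher without overlap. They were picked by p in these same libraries, which favours genes that separate, so the lack of overlap only describes them. Tomm7, a small subunit of the channel through which proteins enter mitochondria, came first, with 114, 129.4 and 190.2 CPM in Pb kidneys, against 56.6, 61.2 and 70.6 CPM in Co kidneys and 24.99, 30.7 and 44.2 CPM in Ta kidneys. The gap between the groups was wider than the range of the Co kidneys (1.10 ± 0.12, adjusted p = 1.28e-07). Tmem256, a small membrane protein, had 113, 116 and 149.6 CPM in Pb kidneys and 45.7, 61.1 and 80.6 CPM in Co kidneys (0.98 ± 0.11, adjusted p = 1.34e-07). Naa38, a subunit of an amino-terminal acetyltransferase (0.89), Tmem238 (0.88), Cops9 of the COP9 signalosome (0.80) and Ndufaf8, an assembly factor of complex I (0.94), rose without overlap. Each of these 6 kept its call without any single library, against Co replicates 4 to 8 and with the balance as covariate. In a test against a fold of 1.5 rather than against no change, Tomm7 (adjusted p = 0.0406), Rps28 (0.0111) and Grin1 (0.0111) were the genes that passed, with 1086 genes at an unadjusted p under 0.05.

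Grin1, a subunit of the NMDA glutamate receptor, is named after its values were seen. It had 9, 21, 22, 2, 23, 89 and 86 counts in Pb replicates 1 to 7, against 1, 0, 2, 1, 0, 0, 0 and 0 counts in Co replicates 1 to 8. All Pb kidneys but replicate 4, which had 2 counts, had more counts than any Co kidney, and the level stayed at or below 3.44 CPM, so no fold change is given. The Ta kidneys had 5, 16, 16, 12, 10, 0, 0 and 10 counts in replicates 1 to 8, so that 6 of them were above all Co kidneys as well and within the Pb range.

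The 10 lower genes with the smallest p, picked in the same way, did not overlap between the groups either. Of all genes, 1.63% were lower without overlap. Ywhae, the 14-3-3 epsilon adaptor, had 193, 204 and 237 CPM in Pb kidneys, against 245, 281 and 311 CPM in Co kidneys and 261, 289 and 313 CPM in Ta kidneys. All Pb kidneys lay below all Co kidneys, while the Co range overlapped the Ta range (-0.43 ± 0.06, adjusted p = 2.97e-06). Mpp5, a scaffold of tight junctions and cell polarity, had 7.93, 12.4 and 15.8 CPM in Pb kidneys, against 22.02, 28.3 and 36.1 CPM in Co kidneys (-1.20 ± 0.17, adjusted p = 3.53e-06). Nek7, a mitotic kinase that also takes part in inflammasome assembly, had 5.07, 6.90 and 9.29 CPM in Pb kidneys and 11.1, 14.2 and 21.9 CPM in Co kidneys (-1.11 ± 0.16, adjusted p = 4.1e-06). Lman1, a cargo receptor between endoplasmic reticulum and Golgi (-0.97), the RNA-binding protein Rbm27 (-1.01), the calcineurin catalytic subunit Ppp3ca (-0.76), the Golgi exchange factor Arfgef1 (-0.63), the basolateral scaffold Erbin (-0.96), the nuclear pore protein Nup153 (-0.80) and Wac (-0.57) fell without overlap. These 10 genes kept their calls without any single library and against Co replicates 4 to 8. Their calls with the balance as covariate are not given here, and 39 genes in all passed as lower in that fit.

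**Figure D3:**
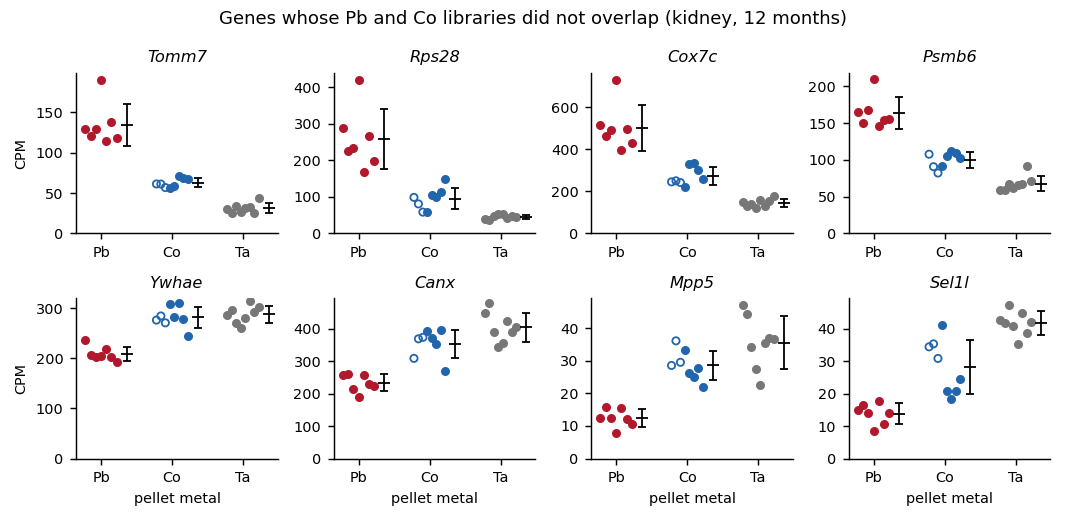
CPM of 8 genes in 7 Pb, 8 Co and 8 Ta kidneys; each point is 1 library, open circles are Co replicates 1 to 3, and bars give the mean ± SD. In all 8 genes the Pb and Co kidneys do not overlap, with Tomm7, Rps28, Cox7c and Psmb6 higher and Ywhae, Canx, Mpp5 and Sel1l lower in Pb kidneys.

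Genes of very large proteins were lower in Pb kidneys. Of 56 tested, 29 fell and none rose, against 14.5% of all genes, with a median log2 fold change of -0.28. Of 35 large chromatin regulators, a list that shares members with it, 19 fell and none rose (median -0.32). Ncor1, a corepressor of nuclear receptors, had 85.5, 93.0 and 111 CPM in Pb kidneys, against 117, 141.9 and 165 CPM in Co kidneys and 158, 177 and 204 CPM in Ta kidneys, without overlap between Pb and Co (-0.61 ± 0.10, adjusted p = 2.97e-05). The histone acetyltransferase Ep300 had 36.8, 52.8 and 59.8 CPM in Pb kidneys and 62.0, 74.4 and 78.3 CPM in Co kidneys (-0.51 ± 0.10, adjusted p = 0.000136). The methyltransferase Ash1l (-0.74) and Ank3, a membrane adaptor (-0.53), fell without overlap too. Most members did overlap: only 4 of the 56 very large and 3 of the 35 chromatin genes were lower without overlap, against 1.63% of all genes. Single libraries weighed on the counts: without Pb replicate 4, 17 very large and 10 chromatin genes passed, and against Co replicates 4 to 8 15 and 7 did.

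Markers of podocytes, the cells that hold the filtration slits of the glomerulus, were lower in Pb kidneys. They fell in 11 of 14 genes and rose in none (median -1.13), while 14.5% of all genes fell. Markers of endothelium fell in 8 of 14 and those of pericytes and smooth muscle in 5 of 13, with medians of -0.84 and -0.62. In whole-kidney RNA, fewer cells of a type and less RNA per cell cannot be told apart. The size of these differences depended on which Co kidneys were taken. With Co replicates 1 to 4 and 8, a set chosen after seeing the data, 5041 genes passed in all. In that fit 14 podocyte, 12 endothelial and 10 pericyte markers fell (medians -1.48, -1.28 and -1.04). When only Co replicates 4 to 8 were kept, 3, 0 and 0 fell, with medians of -0.9, -0.15 and -0.13. Both sets hold fewer Co kidneys than the main fit, so counts of calls and medians need not move together. Synpo, synaptopodin of the foot process, had 6.36, 9.22 and 13.8 CPM in Pb kidneys, against 6.42, 28.8 and 47.4 CPM in Co kidneys and 41.4, 54.6 and 66.0 CPM in Ta kidneys. The lowest Co kidney lay within the Pb range (-1.44 ± 0.34, adjusted p = 0.00152), and the log2 fold change was -1.08 (adjusted p = 0.0408) against Co replicates 4 to 8. Podxl, podocalyxin (-2.03), and Nphs1, nephrin (-1.48), fell with overlap, and against Co replicates 4 to 8 their adjusted p was 0.199 and 0.0592. Cd2ap, an adaptor of the slit diaphragm that other kidney cells also express, had 26.4, 35.7 and 40.0 CPM in Pb kidneys and 42.3, 49.7 and 53.8 CPM in Co kidneys and was the only podocyte marker whose groups did not overlap (-0.46 ± 0.10, adjusted p = 0.000888). The count of 11 was 7 without Pb replicate 4 and up to 14 without other single libraries.

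Kdr, through which endothelial cells sense vascular endothelial growth factor, had 1.67, 2.78 and 5.26 CPM in Pb kidneys, against 3.07, 10.4 and 51.2 CPM in Co kidneys and 35.5, 43.0 and 47.1 CPM in Ta kidneys. Co replicates 1 to 3 held 25.2 to 51.2 CPM and the other Co kidneys 3.07 to 11.3 CPM, next to the Pb range (-2.57 ± 0.60, adjusted p = 0.00137; -1.12, adjusted p = 0.202, against Co replicates 4 to 8). Pecam1, an adhesion molecule of endothelial junctions, had 6.86, 11.8 and 13.6 CPM in Pb kidneys and 8.14, 22.8 and 64.2 CPM in Co kidneys (-1.43 ± 0.37, adjusted p = 0.00378; -0.52, adjusted p = 0.37, against Co replicates 4 to 8). Rgs5 of pericytes went the same way (-1.57, and -0.56 against Co replicates 4 to 8, adjusted p = 0.00562 and 0.422). Against Co replicates 4 to 8 the endothelial median was -0.15. The endothelial count was 3 without Co replicate 1 or 2 and 5 without Pb replicate 1, 2 or 4, and the pericyte count was 2 without Co replicate 2 and 3 without Co replicate 1 or Pb replicate 1, 4 or 7. Collagen and matrix genes fell in 4 of 32, a share below the 14.5% of all genes, and rose in 1 (median -0.41), with 2 lower without Co replicate 2, 7 without Co replicate 5 or 7, 14 against Co replicates 1 to 4 and 8, and 1 against Co replicates 4 to 8.

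**Figure D4:**
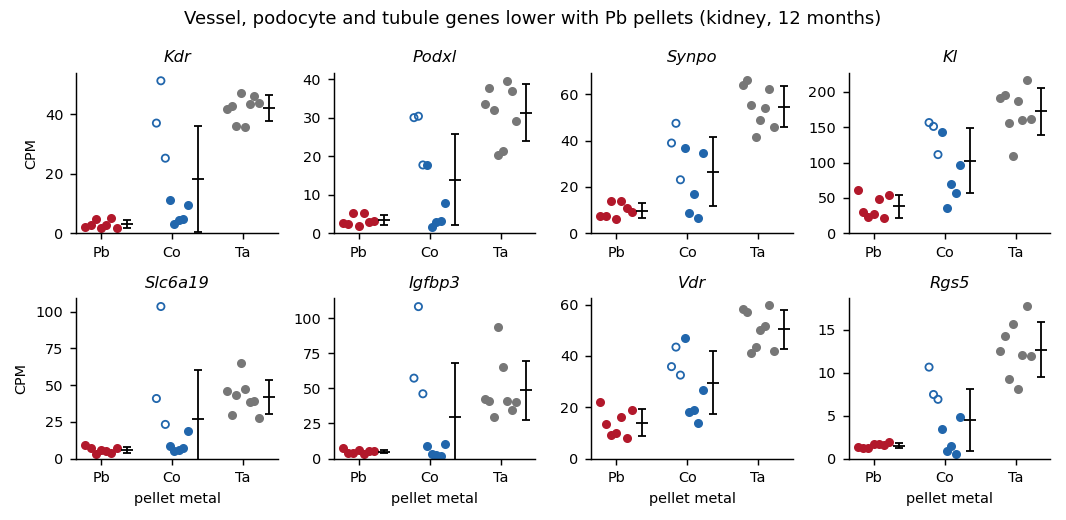
CPM of 8 genes of vessels, podocytes, pericytes, tubules and vitamin D in 7 Pb, 8 Co and 8 Ta kidneys; each point is 1 library, open circles are Co replicates 1 to 3, and bars give the mean ± SD. The Pb kidneys are low and close together, and the Co kidneys spread from the Pb level to the Ta level, with Co replicates 5 to 7 among the low ones.

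Among tubule segments, the early proximal tubule and the distal convoluted tubule had the most genes lower in Pb kidneys. Of 20 tested markers of proximal segments S1 and S2, which reclaim most filtered solutes, 9 fell and none rose (median -0.52). Among all genes, 14.5% fell and 11.3% rose. Slc6a19, the neutral amino acid transporter of the brush border, had 3.26, 5.997 and 9.19 CPM in Pb kidneys, against 5.18, 13.8 and 103.6 CPM in Co kidneys and 27.8, 41.4 and 64.9 CPM in Ta kidneys. Co replicate 2 held the highest value (-2.17 ± 0.64, adjusted p = 0.00964; -1.41 with an adjusted p of 0.0842 without Co replicate 2). The count of 9 was 2 without Co replicate 2, 5 without Pb replicate 3 or 4, and 0 against Co replicates 4 to 8. None of 13 markers of segment S3 passed in either direction, and Slc34a1 did not pass (log2 fold change -0.33 ± 0.33, adjusted p = 0.509). In the distal convoluted tubule 6 of 11 markers fell and none rose (median -0.62), with 3 lower without Co replicate 1 or 4 or Pb replicate 4 or 6. Against Co replicates 4 to 8, 2 distal markers fell. The log2 fold change was positive in 3 of the 11, up to 0.42. For 1 marker every Pb kidney lay above every Co kidney, though it did not pass, and no distal marker that fell separated the groups. The thick ascending limb had 1 higher and 3 lower genes of 12, with 1 lower when any of 8 libraries (Co replicates 1, 3 and 4, Pb replicates 1 to 4 and 6) was left out and none against Co replicates 4 to 8, and Umod was at 0.13 ± 0.28 (adjusted p = 0.787). Of 13 markers of principal cells of the collecting duct 1 rose and 1 fell (median -0.09), with 3 lower without Co replicate 5 or 7, 2 lower without Co replicate 2 or Pb replicate 7, and 2 higher without Pb replicate 1. The member that fell was Tfcp2l1, a transcription factor. It had 3.18, 6.13 and 11.5 CPM in Pb kidneys, against 5.55, 24.4 and 39.3 CPM in Co kidneys (-1.73 ± 0.38, adjusted p = 0.000706), and stayed past the threshold against Co replicates 4 to 8 (-1.24, adjusted p = 0.0354). The water channel Aqp2 of principal cells did not pass (525, 690.3 and 904 CPM in Pb kidneys, 379, 584 and 667 CPM in Co kidneys, adjusted p = 0.41). No marker of intercalated cells passed of 12 tested.

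Genes of vitamin D, klotho and calcium handling, several of them distal tubule genes, fell in 11 of 19 and rose in none (median -0.77). Of all genes, 14.5% fell. Kl, klotho, the co-receptor for the phosphate hormone FGF23, had 21.9, 30.0 and 61.4 CPM in Pb kidneys, against 36.1, 104.1 and 157 CPM in Co kidneys and 109, 175 and 217 CPM in Ta kidneys. The highest Pb kidney lay below the Co median (-1.43 ± 0.36, adjusted p = 0.00235; -1.09, adjusted p = 0.0542, against Co replicates 4 to 8). Vdr, the vitamin D receptor, had 8.17, 13.5 and 21.97 CPM in Pb kidneys and 13.7, 29.6 and 47.04 CPM in Co kidneys (-1.08 ± 0.26, adjusted p = 0.00185), and -0.84 (adjusted p = 0.0465) against Co replicates 4 to 8. Cyp24a1, which degrades active vitamin D, had 36.2, 54.1 and 106 CPM in Pb kidneys and 47.6, 99.6 and 166 CPM in Co kidneys (-0.75 ± 0.28, adjusted p = 0.0446), a call lost without Pb replicate 1, 3, 4, 5 or 6 or Co replicate 2, 5, 6 or 7, each left out alone (highest adjusted p = 0.116 without Co replicate 2), and against Co replicates 4 to 8 (0.0774). The count of 11 was 6 without Pb replicate 4, 7 without Co replicate 2 or Pb replicate 6, and 3 against Co replicates 4 to 8 (median -0.66). Markers of S1 and S2 averaged 8.04 to 8.97 log2 CPM in the first 3 Co libraries, against 6.87 to 7.30 log2 CPM for Co replicates 5 to 7. Co replicates 4 and 8 lay between, at 7.46 and 7.67. Podocyte markers averaged 3.99 to 4.64 log2 CPM in the first 3 and 2.26 to 3.44 log2 CPM in replicates 5 to 7. Here Co replicates 4 and 8, at 4.33 and 4.23, lay within the range of the first 3. The part of podocyte markers in the tubule values was not tested.

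Genes that respond to metals or hypoxia moved in both directions, and their counts stand beside shares of 11.3% higher and 14.5% lower among all genes. The metallothioneins, small proteins that bind metal ions, did not pass: Mt1 had 184, 299.8 and 663 CPM in Pb kidneys, against 198.9, 347 and 483 CPM in Co kidneys and 274, 375 and 486 CPM in Ta kidneys (0.14 ± 0.33, adjusted p = 0.801), and Mt2A had 426, 752 and 1502 CPM in Pb kidneys and 436, 589 and 774 CPM in Co kidneys (0.57 ± 0.34, adjusted p = 0.222). Pb replicates 4 and 1 held the highest Mt1 and Mt2A levels. Of 18 metal handling genes 6 fell and 1 rose (median -0.30). The call of the riser was lost without Co replicate 2, Co replicate 4 or Pb replicate 4, and 2 fell and none rose against Co replicates 4 to 8. Tfrc, the transferrin receptor for iron uptake, had 6.10, 9.99 and 13.4 CPM in Pb kidneys, against 11.3, 19.3 and 25.6 CPM in Co kidneys (-0.87 ± 0.26, adjusted p = 0.0107). The zinc transporter Slc39a10 (-0.87 ± 0.23, adjusted p = 0.00396) and the copper importer Slc31a1 (-0.52 ± 0.15, adjusted p = 0.00992) fell with overlap. Against Co replicates 4 to 8 the adjusted p was 0.078 for Tfrc, 0.116 for Slc39a10 and 0.108 for Slc31a1.

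In the heme pathway 2 of 13 genes rose, near the 11.3% of all genes that rose, and none fell (median 0.15). Only 1 rose against Co replicates 4 to 8. Urod, uroporphyrinogen decarboxylase, had 103.9, 120.1 and 139.96 CPM in Pb kidneys, against 78.6, 93.7 and 103.3 CPM in Co kidneys and 60.6, 69.6 and 85.6 CPM in Ta kidneys, with every Pb kidney above every Co kidney (0.36 ± 0.09, adjusted p = 0.00222; 0.0694 against Co replicates 4 to 8). Blvrb, a biliverdin reductase, rose by 0.39 ± 0.12 (adjusted p = 0.0107). Alad, the delta-aminolevulinate dehydratase that lead inhibits as an enzyme, had 122.96, 133 and 158 CPM in Pb kidneys and 105, 111 and 146 CPM in Co kidneys and did not pass (0.24 ± 0.13, adjusted p = 0.18), nor did Fech, ferrochelatase (-0.23 ± 0.10, adjusted p = 0.0858). Targets of hypoxia-inducible factor rose in 3 and fell in 2 of 27 genes (median -0.03), about the share of all genes that rose and less than the share that fell. The lower count was 1 without Co replicate 2 or Pb replicate 3, 6 or 7, and 1 rose and 1 fell against Co replicates 4 to 8. Higd1a, a mitochondrial protein induced by hypoxia, had 42.1, 48.7 and 62.3 CPM in Pb kidneys, against 18.5, 23.3 and 31.5 CPM in Co kidneys and 7.49, 14.9 and 19.8 CPM in Ta kidneys, without overlap (1.05 ± 0.14, adjusted p = 3.07e-06). P4ha1, a collagen prolyl hydroxylase, had 23.8, 29.4 and 31.0 CPM in Pb kidneys and 33.9, 38.3 and 48.2 CPM in Co kidneys, again without overlap but in the other direction (-0.47 ± 0.12, adjusted p = 0.00369). Egln1, the oxygen-sensing prolyl hydroxylase, rose by 0.29 ± 0.08 (adjusted p = 0.00403; 0.0606 against Co replicates 4 to 8). Vegfa (-0.22 ± 0.16, adjusted p = 0.326) and Egln3 (-0.44 ± 0.33, adjusted p = 0.346) did not pass. Epo, erythropoietin, had 2, 0, 0, 0, 0, 0 and 3 counts in Pb replicates 1 to 7, against 6 counts in Co replicate 2 and 0 in the other Co kidneys, and was too low to test.

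**Figure D5:**
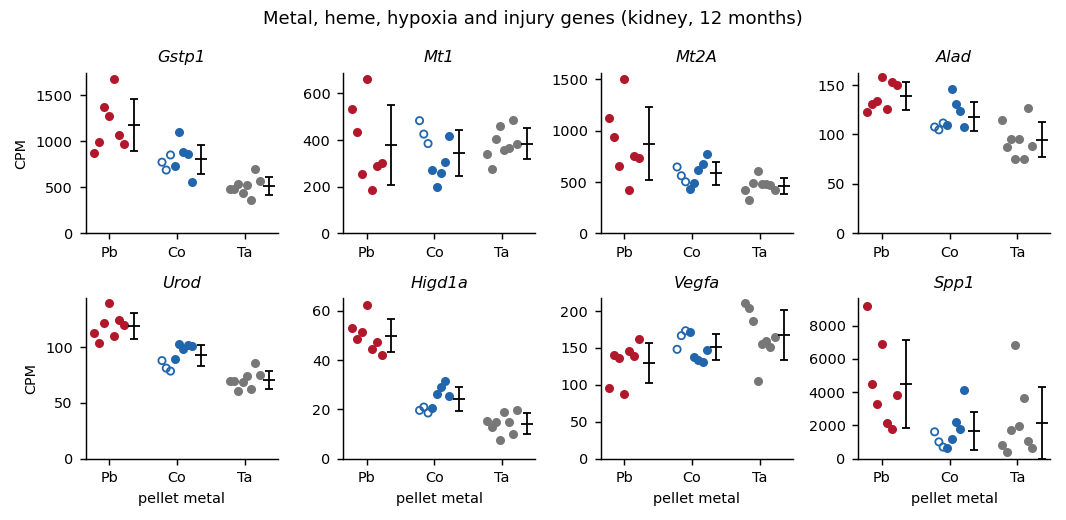
CPM of 8 genes of metal binding, heme synthesis, hypoxia and injury in 7 Pb, 8 Co and 8 Ta kidneys; each point is 1 library, open circles are Co replicates 1 to 3, and bars give the mean ± SD. Urod and Higd1a separate the Pb from the Co kidneys, while Mt1, Mt2A, Alad, Vegfa and Spp1 overlap and did not pass the test.

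Antioxidant enzymes rose in 7 of 19 genes and fell in none (median 0.15). Among all genes, 11.3% rose and 14.5% fell. Txn1, thioredoxin, had 488, 569.9 and 772 CPM in Pb kidneys, against 270.2, 344 and 498 CPM in Co kidneys and 179.5, 230.4 and 257 CPM in Ta kidneys (0.64 ± 0.12, adjusted p = 0.000185). Sod1, the cytosolic superoxide dismutase, had 1077, 1271 and 1437 CPM in Pb kidneys and 693, 789.9 and 1047 CPM in Co kidneys, and the lowest Pb kidney lay just above the highest Co kidney (0.55 ± 0.14, adjusted p = 0.00353; 0.0599 against Co replicates 4 to 8). Prdx5, a peroxiredoxin, rose without overlap as well (0.46 ± 0.13, adjusted p = 0.0082; 0.0838 against Co replicates 4 to 8). The count was 3 without Pb replicate 4, 4 without any 1 of Co replicates 1 to 4, and 1 against Co replicates 4 to 8. Of 20 glutathione S-transferases, which couple glutathione to toxins, 1 rose. It was Gstp1, with 877, 1066 and 1676 CPM in Pb kidneys, against 561, 814 and 1101 CPM in Co kidneys and 360.4, 508 and 696 CPM in Ta kidneys (0.55 ± 0.18, adjusted p = 0.0223), and its adjusted p was 0.0747 without Pb replicate 5 and 0.109 against Co replicates 4 to 8. NRF2 targets and glutathione genes rose in 1 and fell in 3 of 22, with 1 lower without Co replicate 2, 5 without Co replicate 8, and 1 lower and none higher against Co replicates 4 to 8. Nqo1 (0.17 ± 0.23, adjusted p = 0.647) and the heme oxygenase gene Hmox1 (-0.14 ± 0.53, adjusted p = 0.882) did not pass.

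How many markers of tubular injury passed depended on the fit, and their spread between animals was wide. Of 24 tested, 3 rose, about the 11.3% of all genes that rose, and none fell. The list median was 0.62, and the log2 fold change was positive in 23. In the fit of only Pb and Co libraries 13 rose, and in limma voom 12 did. Havcr1, the kidney injury molecule KIM-1, had 29.6, 72.9 and 119 CPM in Pb kidneys, against 7.23, 24.0 and 65.1 CPM in Co kidneys and 3.86, 20.5 and 97.5 CPM in Ta kidneys, and did not pass (1.31 ± 0.76, adjusted p = 0.21). Lcn2, the lipocalin NGAL, had 28.8, 41.3 and 222 CPM in Pb kidneys and 8.998, 14.8 and 72.8 CPM in Co kidneys, with 1 high Pb kidney, replicate 1, and 1 high Co kidney, replicate 8 (1.75 ± 0.98, adjusted p = 0.194). Spp1, osteopontin, had 1751, 3826 and 9179 CPM in Pb kidneys and 606, 1383 and 4098 CPM in Co kidneys (1.45 ± 0.61, adjusted p = 0.0747). Clu (0.93 ± 0.51, adjusted p = 0.181) and Timp1 (1.01 ± 0.57, adjusted p = 0.198) did not pass either. None of the 24 passed against Co replicates 4 to 8 or without Co replicate 2, Co replicate 3 or Pb replicate 4, 1 passed without Co replicate 4 or Pb replicate 1, and 6 without Co replicate 8. Targets of p53 fell in 3 and rose in 1 of 18, beside shares of 14.5% lower and 11.3% higher among all genes. Zmat3, an RNA-binding p53 target, had 0.408, 0.675 and 1.09 CPM in Pb kidneys, against 1.13, 2.04 and 4.13 CPM in Co kidneys (-1.49 ± 0.33, adjusted p = 0.000712), and cyclin G1, Ccng1, had 22.8, 26.9 and 30.1 CPM in Pb kidneys and 32.5, 39.4 and 43.6 CPM in Co kidneys (-0.53 ± 0.11, adjusted p = 0.000546). Both fell without overlap, whereas Bax, a promoter of cell death, rose (0.56 ± 0.11, adjusted p = 0.000352). Cdkn1a, the p21 inhibitor of the cell cycle, was at 0.00 ± 0.25 (adjusted p = 0.992).

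Chaperones of the endoplasmic reticulum fell in 5 of 19 genes (3 without Co replicate 5, and 3 against Co replicates 4 to 8) and rose in 1. Among all genes, 14.5% fell and 11.3% rose. The riser lost its call against Co replicates 4 to 8 and without Pb replicate 2, 3, 4, 6 or 7 or Co replicate 1, 2, 3, 4 or 8, each left out alone, and 2 rose without Co replicate 5. Canx, calnexin, which folds glycoproteins, had 191, 229 and 259.8 CPM in Pb kidneys, against 271, 370.4 and 398 CPM in Co kidneys and 345, 398 and 479.6 CPM in Ta kidneys, without overlap (-0.60 ± 0.09, adjusted p = 1.11e-05). Sel1l, the adaptor of a ubiquitin ligase that clears misfolded proteins, had 8.60, 14.1 and 17.7 CPM in Pb kidneys and 18.2, 27.7 and 41.1 CPM in Co kidneys (-1.04 ± 0.17, adjusted p = 2.97e-05). Cytosolic and mitochondrial heat shock genes fell in 5 and rose in 1 of 17. Hsp90aa1, an HSP90 isoform, had 283, 348 and 374 CPM in Pb kidneys and 376, 432 and 562 CPM in Co kidneys (-0.39 ± 0.10, adjusted p = 0.00253), and Hsph1, an HSP110 co-chaperone, had 89.7, 93.1 and 97.3 CPM in Pb kidneys and 106, 135.2 and 169.8 CPM in Co kidneys (-0.59 ± 0.16, adjusted p = 0.00459). Pb kidneys lay below Co kidneys without overlap for both. The member that rose was Hspe1, the small mitochondrial chaperonin subunit (0.65 ± 0.15, adjusted p = 0.00118).

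Few markers of immune cells passed, beside shares of 11.3% higher and 14.5% lower among all genes. None of 16 macrophage and none of 8 B cell markers passed, and 1 of 15 T and NK cell markers did (3 without Co replicate 1, 2 without Pb replicate 5 or Co replicate 8). That was Cd3d, a chain of the T cell receptor complex, with 1.08, 1.63 and 4.80 CPM in Pb kidneys, against 0, 0.539 and 0.937 CPM in Co kidneys and 0.426, 0.569 and 3.28 CPM in Ta kidneys (2.11 ± 0.61, adjusted p = 0.00857; 0.0508 against Co replicates 4 to 8). Summed over the list, T and NK markers reached 14.1 to 42.0 CPM in Pb kidneys and 7.79 to 53.4 CPM in Co kidneys, ranges that overlap. Psmb9, an immunoproteasome subunit, rose (1.02 ± 0.33, adjusted p = 0.0169, and 0.0608 without Pb replicate 4), as did Ifi27, an interferon-induced gene (1.02 ± 0.31, adjusted p = 0.0114). Of 18 interferon response genes Ifi27 alone rose and 2 fell (median 0.03), with 1 lower without Co replicate 7 or against Co replicates 4 to 8, and 2 higher without Co replicate 8. Of 23 cell cycle genes 5 rose and 1 fell (median 0.49), and 3 rose without Co replicate 2 or 3 or Pb replicate 1, 2 or 4, or against Co replicates 4 to 8. The member that fell lost its call without Pb replicate 4 or Co replicate 4 and against Co replicates 4 to 8. Birc5, survivin of the mitotic spindle, had 6.30, 8.29 and 11.002 CPM in Pb kidneys, against 1.17, 3.74 and 5.37 CPM in Co kidneys and 0.889, 3.13 and 5.22 CPM in Ta kidneys, without overlap (1.20 ± 0.27, adjusted p = 0.00101). Ccnb1, cyclin B1, had 2.45, 3.35 and 5.32 CPM in Pb kidneys and 0.925, 1.14 and 2.39 CPM in Co kidneys (1.36 ± 0.42, adjusted p = 0.0142), and the replication helicase subunit Mcm7 rose by 0.48 ± 0.11 (adjusted p = 0.00171). Birc5, Ccnb1 and Mcm7 kept their calls against Co replicates 4 to 8. Complement genes had 1 call (2 lower without Pb replicate 3 or any 1 of Co replicates 4 to 7), C7, which fell (-2.12 ± 0.68, adjusted p = 0.018). It was -1.45 with an adjusted p of 0.107 without Co replicate 2, and -0.20 against Co replicates 4 to 8.

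Most genes of fatty acid, cholesterol, amino acid and glucose metabolism that passed were lower in Pb kidneys. The counts of this paragraph stand beside shares of 14.5% lower and 11.3% higher among all genes. Fatty acid oxidation genes fell in 6 (3 without Co replicate 2 or Pb replicate 4, or against Co replicates 4 to 8) and rose in 1 of 24, a call lost without Pb replicate 3, 4, 5 or 7 or Co replicate 3, 6, 7 or 8. Cpt1a, which admits long fatty acids to mitochondria, had 27.3, 46.9 and 56.9 CPM in Pb kidneys, against 44.5, 76.8 and 95.6 CPM in Co kidneys and 93.8, 109.7 and 153 CPM in Ta kidneys (-0.82 ± 0.19, adjusted p = 0.00127). The highest Pb kidney exceeded the lowest Co kidney. Cholesterol synthesis genes fell in 6 and rose in 1 of 20, and 3 fell and none rose against Co replicates 4 to 8. None rose without Pb replicate 4 and 2 rose without Co replicate 8. Sc5d, a desaturase of the late steps of cholesterol synthesis, had 10.6, 13.9 and 15.96 CPM in Pb kidneys and 12.9, 19.8 and 24.5 CPM in Co kidneys, and Co replicate 1 alone lay within the Pb range (-0.56 ± 0.12, adjusted p = 0.000745). Amino acid and glucose genes fell in 6 of 13, 2 without Co replicate 2 and 1 against Co replicates 4 to 8. Clock, the transcription factor of the circadian core loop, had 2.45, 3.67 and 4.76 CPM in Pb kidneys, against 4.41, 8.84 and 16.2 CPM in Co kidneys (-1.39 ± 0.28, adjusted p = 0.000352), and 3 of 17 clock genes fell, 1 without Co replicate 3 or Pb replicate 4 or against Co replicates 4 to 8. Cpt1a, Sc5d and Clock kept their calls against Co replicates 4 to 8. Markers of other cells that a kidney sample can hold gave few calls: 1 of 9 adipocyte markers rose (summed level 98.5 to 249.9 CPM in Pb kidneys, 95.7 to 195 CPM in Co kidneys), 1 of 10 erythroid markers fell and none of 9 urothelial markers passed. The adipocyte call was lost without Pb replicate 3 or 6. The erythroid call was lost without Pb replicate 1, 3 or 5 or Co replicate 1 or 3, and 2 erythroid markers fell without Co replicate 6. Against Co replicates 4 to 8 neither list had a call. The time of day of sampling is not given in the sources used here.

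The largest changes by size among genes with a mean of at least 2 CPM were of 2 kinds. Those that rose, most of them low in level, kept their calls without any 1 library, except Ptprcap (adjusted p = 0.0363, up to 0.0953 without Pb replicate 4, and lost also without Pb replicate 1 or Co replicate 3, 4, 5, 6 or 7) and Serpina10 (adjusted p = 0.0554 without Pb replicate 1 and 0.153 against Co replicates 4 to 8). Col9a3, a chain of cartilage collagen IX, had 1.74, 6.15 and 9.92 CPM in Pb kidneys, against 0, 1.28 and 2.99 CPM in Co kidneys and 0, 1.56 and 2.38 CPM in Ta kidneys (1.99 ± 0.53, adjusted p = 0.00435). Tead2, a transcription factor of the Hippo pathway, had 2.22, 3.30 and 4.70 CPM in Pb kidneys and 0.441, 1.21 and 1.34 CPM in Co kidneys, without overlap (1.66 ± 0.47, adjusted p = 0.00788). Rps18l1 and Rpl5l1, named as copies of ribosomal genes, rose by 1.47 and 1.25 and share sequence with their parent genes. Those that fell were high in Co replicates 1 to 3. Igfbp3, a binding protein of insulin-like growth factors, had 3.54, 5.15 and 7.36 CPM in Pb kidneys, against 2.01, 9.66 and 108 CPM in Co kidneys. Its level was 46.1 to 108 CPM in Co replicates 1 to 3 and 2.01 to 10.3 CPM in the other Co kidneys (-2.59 ± 0.72, adjusted p = 0.00613; -1.92 without Co replicate 2 and -0.13 against Co replicates 4 to 8). Esm1, a product of endothelial tip cells (-2.69), the peptide transporter Slc15a1 (-2.36, or -1.53 with an adjusted p of 0.193 without Co replicate 2), the phosphatase Ptpru (-2.13) and the adenylate cyclase Adcy1 (-2.11) had the same pattern. None of these 5 passed against Co replicates 4 to 8, with adjusted p of 0.926, 0.896, 0.77, 0.421 and 0.245 in that order. Slc15a1 also lost its call without Pb replicate 2, 3, 4, 6 or 7 or Co replicate 3, each left out alone.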

How the data were processed

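The authors deposited raw read counts for each gene of whole kidneys. Per the labels' protocols, RNA was extracted with TRIzol, treated with DNase and checked for integrity, and a sequencing company made the libraries. Per the submitters' processing notes, the tools were STAR 2.7.2a and featureCounts of Subread 1.6.4, with the build mRatBN7.2. The annotation, the strand setting and the handling of reads that map to several places are not given in the sources used here.

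Of 22525 genes in the count table, 18641 (82.8%) have a symbol known to RefSeq. A further 29 lines hold pieces of broken entries for 5 very long genes and were not used. In edgeR 4.0.16 under R 4.3.3, all 47 libraries entered 1 fit with a mean per metal and share 1 estimate of the spread. Genes were kept by filterByExpr (15868 tested) and scaled by TMM. The contrast of Pb with Co was tested by the two-sided quasi-likelihood F test with Benjamini-Hochberg adjustment and a threshold of 0.05. Log2 CPM used a prior count of 2. Depth per library was 21604755 to 29440870 counts in the 15 Pb and Co libraries. Depth sets counting error, while the tests use the spread between animals. No 2 libraries of a group were copies of each other. Library totals were compared by exact permutation with SciPy 1.17.1. The code was tested on simulated data.

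Alternatives were DESeq2 1.42.0, limma voom (3.58.1), RLE and upper quartile factors, no filter, a filter of 1 CPM in 7 libraries, no mitochondrially encoded genes, a fit of only Pb and Co, a replicate block, a fold of at least 1.5, other sets of Co libraries, covariates of marker levels or of the balance, and fits without each library. The set without Co replicates 5 to 7 and the podocyte and proximal tubule covariates were chosen after seeing the data. A planned split by protein or transcript length was not run, because the lengths were not at hand.

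The comparison and all gene lists were chosen with earlier results of these data known. Genes were named by a rule: the 10 higher and 10 lower genes by size and by p among those with a mean of at least 2 CPM and at least 6 Pb libraries on the side of the Co median that the change gives, a fixed panel, and up to 4 members of each list with the smallest p. Outside the rule, Grin1, Rpl41, Atp5me, Uqcrc2, Ash1l, Podxl and Nphs1 were chosen after their values were seen. A few genes that the rule names are not reported here.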

Additional observations from a re-analysis of the deposited data

Results flagged for a closer look

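Among the genes named above, a single library lay far from the rest of its group in 11 of 216 groups examined, and chance alone flags about 1 group in 20. In Pb replicate 4 the highest levels stood apart for Tomm7, with 190 CPM against 114 to 137.8 CPM in the other Pb kidneys, and for Cox7c, with 731 CPM against 395 to 515 CPM. The same library was high for Naa38 (153 CPM, others 100.8 to 119 CPM), Psmb6 (210.4 CPM, others 146 to 168 CPM) and Mcm7 (59.5 CPM, others 41.6 to 46.9 CPM), and low for Cd2ap (26.4 CPM, others 33.9 to 40.0 CPM). These 6 genes kept their calls without it. Pb replicate 1 was high for C7, with 15.9 CPM against 9.52 to 11.6 CPM in the other Pb kidneys. Among Co kidneys, replicate 7 was high for Wac (116.9 CPM, others 73.7 to 90.5 CPM) and replicate 1 was low for Sc5d (12.9 CPM, others 18.4 to 24.5 CPM). Cd3d was at 0 CPM in Co replicate 6 and at 0.233 to 0.937 CPM in the other Co kidneys, and Col9a3 was at 0 CPM in Co replicate 4 and at 0.980 to 2.99 CPM in the others.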

How the results depend on the processing

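Upper quartile and RLE factors, DESeq2, the other filters and the fit of only Pb and Co left the count of 4100 genes within 1.5 times (3575 to 4390), and limma voom called 5611, of which 2905 were higher. In limma voom 6 heme pathway genes, 4 glutathione S-transferases and 12 tubular injury markers rose and 4 erythroid markers fell, and in the fit of only Pb and Co 13 tubular injury markers rose. Against Co replicates 4 to 8 the count was 2048 (926 higher, 1122 lower), with 35 respiratory chain, 15 very large protein, 3 podocyte, 0 endothelial and 3 vitamin D genes. With the balance as covariate it was 106 (67 higher, 39 lower), with 6 ribosomal and 7 respiratory chain genes and 0 of the very large protein, podocyte, endothelial and vitamin D genes. With endothelial markers as covariate it was 2199 (1020 higher, 1179 lower), with 15 very large protein, 2 podocyte, 1 endothelial and 1 vitamin D genes. With podocyte markers it was 1513 (646 higher, 867 lower), with 46 ribosomal, 12 very large protein, 1 podocyte, 0 endothelial and 1 vitamin D genes. With proximal tubule markers 16 very large protein, 4 podocyte, 2 endothelial and 7 vitamin D genes passed. Against a fold of 1.5 it was 3 (3 higher, 0 lower), 1 of them ribosomal, with 0 in each of the other 5 lists. A covariate that differs between the groups takes up part of the contrast, and the cause of each other shift was not tested.

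Leaving out 1 library gave 3066 to 4413 genes (1321 to 1907 higher, 1745 to 2506 lower), the fewest without Pb replicate 4. The ranges were 67 to 74 for ribosomal, 50 to 58 for respiratory chain, 17 to 32 for very large protein, 7 to 14 for podocyte, 3 to 10 for endothelial and 6 to 11 for vitamin D genes. Same-numbered Pb and Co libraries correlated at -0.154 to 0.118, and 2 of 7 Pb libraries correlated best with their own number. Correlations this weak cannot show whether the numbers pair animals, and the main fit used no pairing. With the replicate block the count was 3261, with 5 podocyte and 3 endothelial genes, and in the same 14 libraries without the block it was 4012, with 5 endothelial genes.

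The sign turned, without passing the threshold, with endothelial markers as covariate for Igfbp3 (0.27) and C7 (0.17), and with podocyte markers for Igfbp3 (0.10), Ptpru (0.23), Adcy1 (0.25) and Rgs5 (0.05). These are log2 fold changes. With only 7 and 8 animals and an uneven Co group, a gene that missed the threshold is not shown to be equal in Pb and Co kidneys.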
